A study of Mus musculus with 16 samples.

Results

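The genes described here are 42 genes of protein folding in the endoplasmic reticulum (ER) and of the unfolded protein response, taken by name from a list of ER chaperones, translocon and signal peptidase subunits and ER stress genes. All 42 were found among the 35647 Ensembl gene identifiers of the table of counts. They were followed in lamina propria immune cells, the mixed cells under the gut epithelium, purified on a Percoll gradient from germ-free mice of wild-type genotype that had carried a single bacterium for 5 weeks. That bacterium was either WT *Bifidobacterium breve* or the Δchat strain, which lacks acetylcholine production. Each strain colonized 4 mice. Cells of colon and ileum were sequenced as bulk poly-A RNA, which gave 16 libraries. They form 4 groups of 4 (colon WT, colon Δchat, ileum WT and ileum Δchat). Colon and ileum libraries of the same strain and number were taken as the same mouse, which the labels do not state outright. No library came from mice without bacteria, so every value below compares carriers of 1 strain or tissue with carriers of the other.

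Secreted and membrane proteins enter the ER through the Sec61 channel, lose their signal peptide, and fold with the help of HSP70 and HSP90 chaperones, lectin chaperones and enzymes that form disulfide bonds. Proteins that fail to fold are drawn back into the cytosol and degraded, a route called ER-associated degradation. When unfolded protein builds up, the sensors IRE1 (the *Ern1* product), ATF6 and PERK (the *Eif2ak3* product) start the unfolded protein response, in which IRE1 splices the mRNA of the factor XBP1, ATF6 becomes a transcription factor, and PERK slows translation while raising ATF4. Plasma cells, which the gut lamina propria holds in large numbers, secrete antibody at a high rate and are known for an ER enlarged under the control of XBP1.

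Genes induced by this response are known for short promoter elements that ATF6 and XBP1 bind, so the promoters were read first for these elements. The members were listed as ER folding and ER stress genes, so an excess of the elements over all genes is no independent result. The RefSeq promoter table (GRCm38.p6, 250 bases before to 50 after each start) held a promoter for 35 of the 42 members. The ER stress element, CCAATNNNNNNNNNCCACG on either strand, stood in 8 of these 35 (22.9%), against 0.137% of 27025 genes. The shorter form ERSE-II, ATTGGNCCACG, stood in 2 members (5.71%, against 0.0444% of genes), and the element TGACGTGG, a site for XBP1 and ATF6, in 2 others (5.71%, against 0.714%). None of these letter patterns overlapped another in a member promoter. The matched stretches are shown because the genes that hold them are mostly chaperones, whose values are set beside those of other members below. Capitals mark the fixed letters of each element, and a stretch that starts with CGTGG is the element on the opposite strand.
Hspa5: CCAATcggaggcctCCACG
Hsp90b1, farther site: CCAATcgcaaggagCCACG
Hsp90b1, nearer site: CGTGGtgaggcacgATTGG
Dnajc3: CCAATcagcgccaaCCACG
Creld2: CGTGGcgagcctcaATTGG
Calr: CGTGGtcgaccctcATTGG
Canx: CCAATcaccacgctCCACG
Pdia6: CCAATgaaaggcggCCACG
Syvn1: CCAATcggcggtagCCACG
Herpud1, ERSE-II: ATTGGgCCACG
Dnajb11, ERSE-II: ATTGGcCCACG
The 9 long elements lay between 212 and 26 bases before the start. *Hspa5*, which encodes the chaperone BiP, and *Txndc5*, which encodes a disulfide isomerase of secretory cells, are printed with the 250 bases before their start, since the slope on immunoglobulin load described below passed the test for *Txndc5* and did not for *Hspa5*. The *Hspa5* stretch is chr2:34771840-34772089 on the plus strand, with its ER stress element 65 to 47 bases before the start. The *Txndc5* stretch is chr13:38527915-38528164 on the minus strand, with TGACGTGG in capitals 138 to 131 bases before the start and no ER stress element in the window. It belongs to 1 of the 3 promoters listed for *Txndc5*, and the others hold none of these elements. *Txndc11*, the other member with TGACGTGG, did not pass on the slope, and the other members that passed hold none of these elements.
Hspa5: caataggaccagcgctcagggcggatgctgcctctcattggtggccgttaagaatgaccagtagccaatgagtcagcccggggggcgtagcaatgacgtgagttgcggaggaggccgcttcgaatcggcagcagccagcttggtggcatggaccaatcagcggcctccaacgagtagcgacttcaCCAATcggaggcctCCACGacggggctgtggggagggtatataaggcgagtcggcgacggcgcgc
Txndc5: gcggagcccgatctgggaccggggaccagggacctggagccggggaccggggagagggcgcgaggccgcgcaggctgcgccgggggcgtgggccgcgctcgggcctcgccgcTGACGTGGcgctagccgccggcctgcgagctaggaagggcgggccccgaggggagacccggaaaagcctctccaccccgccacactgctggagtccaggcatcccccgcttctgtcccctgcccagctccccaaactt
A match of letters is a description of the sequence, and no factor binding was measured in these libraries.

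The libraries held 15940467 to 23612561 counts and between 17261 and 18209 genes with a count. Defining markers of plasma cells, B cells, T cells and macrophages were above 0 in every library, as were the eosinophil markers *Siglecf* and *Ccr3*. *Epx*, an eosinophil granule gene, was at 0 in all 8 colon libraries, in 2 of 4 ileum WT and in 3 of 4 ileum Δchat libraries. Immunoglobulin genes, 424 in number, took 8.05 ± 2.23% of all counts in colon with WT (SD, n = 4) and 3.77 ± 0.51% with Δchat, and 15.0 ± 3.54% in ileum with WT and 10.3 ± 2.30% with Δchat. The ranges in colon, 5.79 to 10.4% with WT and 3.11 to 4.32% with Δchat, did not overlap. Those in ileum, 12.3 to 20.2% and 7.56 to 12.9%, did. In bulk RNA, fewer cells of a type and less RNA per cell cannot be told apart, and this holds for every value below. The summed CPM (counts scaled to a common library size) of 11 epithelial markers ran from 45.2 to 207 in colon WT and from 218 to 3401 in colon Δchat, where replicate 3 stood apart at 3401. The main counts of members that use that library are given with and without it, except those by DESeq2, limma-voom and the fits with added terms. They ran from 73.6 to 246 in ileum WT and from 65.3 to 400 in ileum Δchat.

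**Figure D1:**
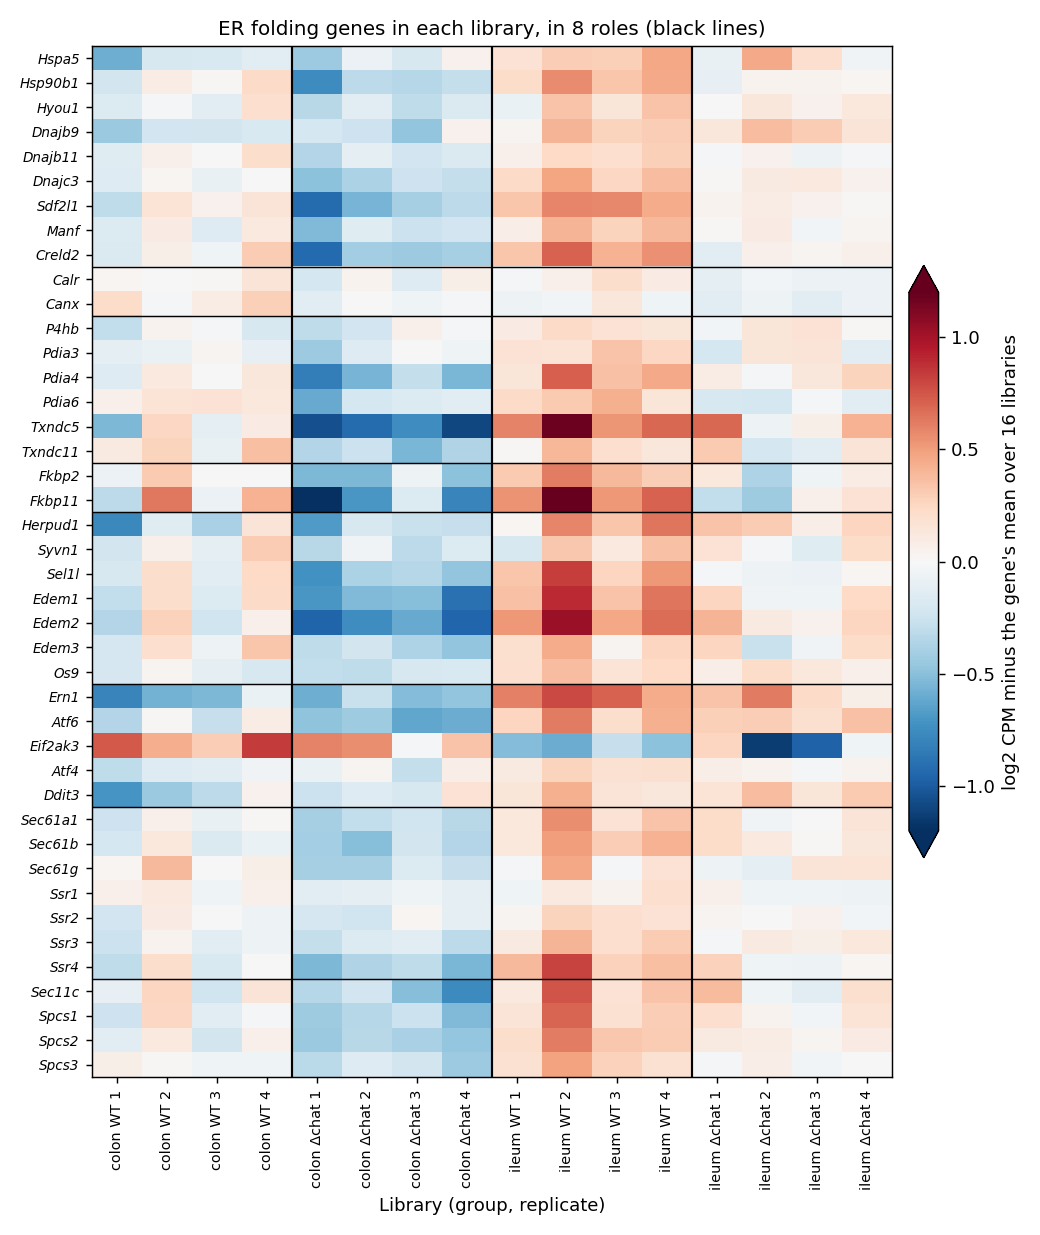
Each cell shows the log2 CPM of 1 of the 42 genes (rows, in 8 roles) in 1 of 16 libraries (columns), minus that gene's mean over the libraries. Most rows are lowest in the 4 colon Δchat libraries and highest in the ileum WT libraries, while *Eif2ak3* runs the other way between tissues and *Calr* and *Canx* are nearly even.

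Summed over the 42 genes, expression in colon was 14236 ± 1411 CPM with WT and 12747 ± 1125 with Δchat, and in ileum 18561 ± 1469 with WT and 15884 ± 702 with Δchat (mean ± SD, n = 4). The strains overlapped in colon (12372 to 15664 against 11185 to 13689) and, narrowly, in ileum (16698 to 20019 against 15387 to 16914). The sum is weighted by *Hspa5*, whose CPM alone ran from 2863 to 5916 over the 16 libraries, so the members are described gene by gene. All 42 passed the filter on low counts in each fit. Log2 fold changes are given with the standard error of the edgeR fit and with p values adjusted over all genes tested, and a gene counts as changed at an adjusted p under 0.05.

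In colon, most of the module was lower in mice with the Δchat strain, by small amounts. No member passed the test, where 0 of 14660 genes passed as lower (0%) and 1 as higher (0.00682%). The log2 fold change was below 0 for 36 of 42 members, with a median of -0.27 against 0.01 for all genes tested. At an unadjusted p under 0.05, 24 members were lower and 0 higher, against 5.31% lower and 7.99% higher of all genes. DESeq2, run on the same counts, called 11 members lower and 0 higher, where it called 1.19% and 0.914% of all genes. In 18 of the 42, all 4 Δchat libraries stood below all 4 WT libraries, against 3.57% of 15198 genes, and in 0 they stood above, against 3.65%. Without the epithelium-rich Δchat replicate 3, 0 members passed (0.00675% of all genes as lower), 23 were lower at an unadjusted p under 0.05 (5.71%), the median was -0.32, and 23 members had no overlap (5.92%), all lower. The log2 fold changes without it were -0.98 ± 0.18 for *Txndc5* (adjusted p = 0.174), -0.84 ± 0.16 for *Edem2* (adjusted p = 0.174), -0.61 ± 0.17 for *Creld2* (adjusted p = 0.264), -0.59 ± 0.11 for *Fkbp2* (adjusted p = 0.174) and 0.13 ± 0.16 for *Hspa5* (adjusted p = 0.798).

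Among the disulfide isomerases, *Txndc5* (ENSMUSG00000038991) had the smallest p of all members in colon. It stood at 361, 623, 484 and 560 CPM in the WT libraries and at 253, 275, 312 and 246 CPM in the Δchat libraries. The groups did not overlap, and the log2 fold change was -0.89 ± 0.17 (adjusted p = 0.178). Ranges without overlap were also found for *Txndc11*, with 102 to 139 CPM in WT against 73.5 to 89.9 CPM in Δchat, for *Pdia4* (186 to 227 against 116 to 170) and for *Pdia6* (300 to 322 against 188 to 261). By contrast, *P4hb*, the classical protein disulfide isomerase, had overlapping ranges of 340 to 428 and 337 to 434 CPM.

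The genes of ER-associated degradation were led by *Edem2* (ENSMUSG00000038312), of a family of mannosidase-like proteins that trim sugars on misfolded glycoproteins. It measured 95.0, 147, 102 and 126 CPM in WT and 62.2, 72.1, 79.3 and 62.4 CPM in Δchat, a log2 fold change of -0.75 ± 0.16 with an adjusted p of 0.208. All Δchat libraries lay below all WT libraries. This was so for *Edem1* (235 to 339 against 155 to 202), *Edem3* (99.1 to 144 against 82.3 to 98.1) and *Sel1l*, an adaptor of the HRD1 ubiquitin ligase (177 to 239 against 122 to 160). *Herpud1*, a stress-induced partner of the same ligase, overlapped widely between strains, and its value was -0.08 ± 0.20 (adjusted p = 0.882). Without colon WT replicate 4 its value was 0.08, and without colon Δchat replicate 1 it was 0.01.

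Of the HSP70 and HSP90 chaperones and their cofactors, *Creld2*, an ER stress-induced folding factor, had the smallest p. Its libraries stood at 80.6, 95.5, 88.0 and 112 CPM in WT and at 47.6, 68.1, 67.3 and 68.9 CPM in Δchat (log2 fold change -0.57 ± 0.15, adjusted p = 0.301). *Hsp90b1*, which encodes the ER form of HSP90, had ranges that did not overlap either, 1341 to 1831 against 925 to 1281 CPM. *Hspa5* went a different way, with 2863, 3752, 3782 and 3922 CPM in WT and 3165, 4101, 3749 and 4451 CPM in Δchat. Its groups overlapped and its log2 fold change was 0.12 ± 0.15 (adjusted p = 0.730). For *Dnajb9*, a BiP cochaperone and target of the IRE1 branch, the ranges were 187 to 224 and 184 to 263 CPM. The lectin chaperones, which hold glycoproteins, had log2 fold changes of -0.09 ± 0.10 for *Calr* (adjusted p = 0.698) and -0.19 ± 0.09 for *Canx* (adjusted p = 0.411).

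The entry machinery was lower throughout in direction. All 4 members of the signal peptidase complex were at an unadjusted p under 0.05, and 4 of 7 members of the translocon and of the TRAP complex, which assists it. *Spcs2* stood at 108, 129, 102 and 123 CPM in WT and at 87.3, 94.0, 90.6 and 86.2 CPM in Δchat (log2 fold change -0.36 ± 0.09, adjusted p = 0.297). *Sec61g*, the small subunit of the Sec61 channel, stood at 35.3, 45.6, 34.9 and 36.6 CPM in WT and at 26.3, 26.4, 31.0 and 28.8 CPM in Δchat (-0.42 ± 0.11, adjusted p = 0.301). Neither gene's groups overlapped. *Sec61a1*, which forms the pore, was at -0.24 ± 0.09 (adjusted p = 0.342). The prolyl isomerases *Fkbp2* and *Fkbp11* were below 0 as well, and *Fkbp2* had the smaller p (-0.45 ± 0.15, adjusted p = 0.327).

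The sensors and their factors were mixed in direction, with *Atf6* and *Eif2ak3* below 0 and *Ern1*, *Atf4* and *Ddit3* above. *Atf6* had libraries without overlap, at 138, 177, 145 and 187 CPM in WT and 126, 131, 114 and 116 CPM in Δchat (log2 fold change -0.40 ± 0.11, adjusted p = 0.313). *Ern1* stood at 51.2, 59.7, 61.1 and 84.1 CPM in WT and 59.2, 73.6, 61.6 and 63.8 CPM in Δchat, and *Eif2ak3* at 483, 391, 355 and 519 CPM in WT and 438, 427, 285 and 367 CPM in Δchat. Both overlapped between strains, with log2 fold changes of 0.02 ± 0.15 for *Ern1* (adjusted p = 0.958) and -0.20 ± 0.16 for *Eif2ak3* (adjusted p = 0.617). *Atf4*, the factor raised by PERK, stood at 504, 560, 566 and 606 CPM in WT and 589, 638, 512 and 658 CPM in Δchat (0.11 ± 0.10, adjusted p = 0.652). *Ddit3*, which encodes the stress factor CHOP, stood at 44.5, 53.5, 58.6 and 75.3 CPM in WT and 60.8, 65.2, 63.7 and 82.0 CPM in Δchat. Its log2 fold change of 0.24 was the highest of the 42.

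**Figure D2:**
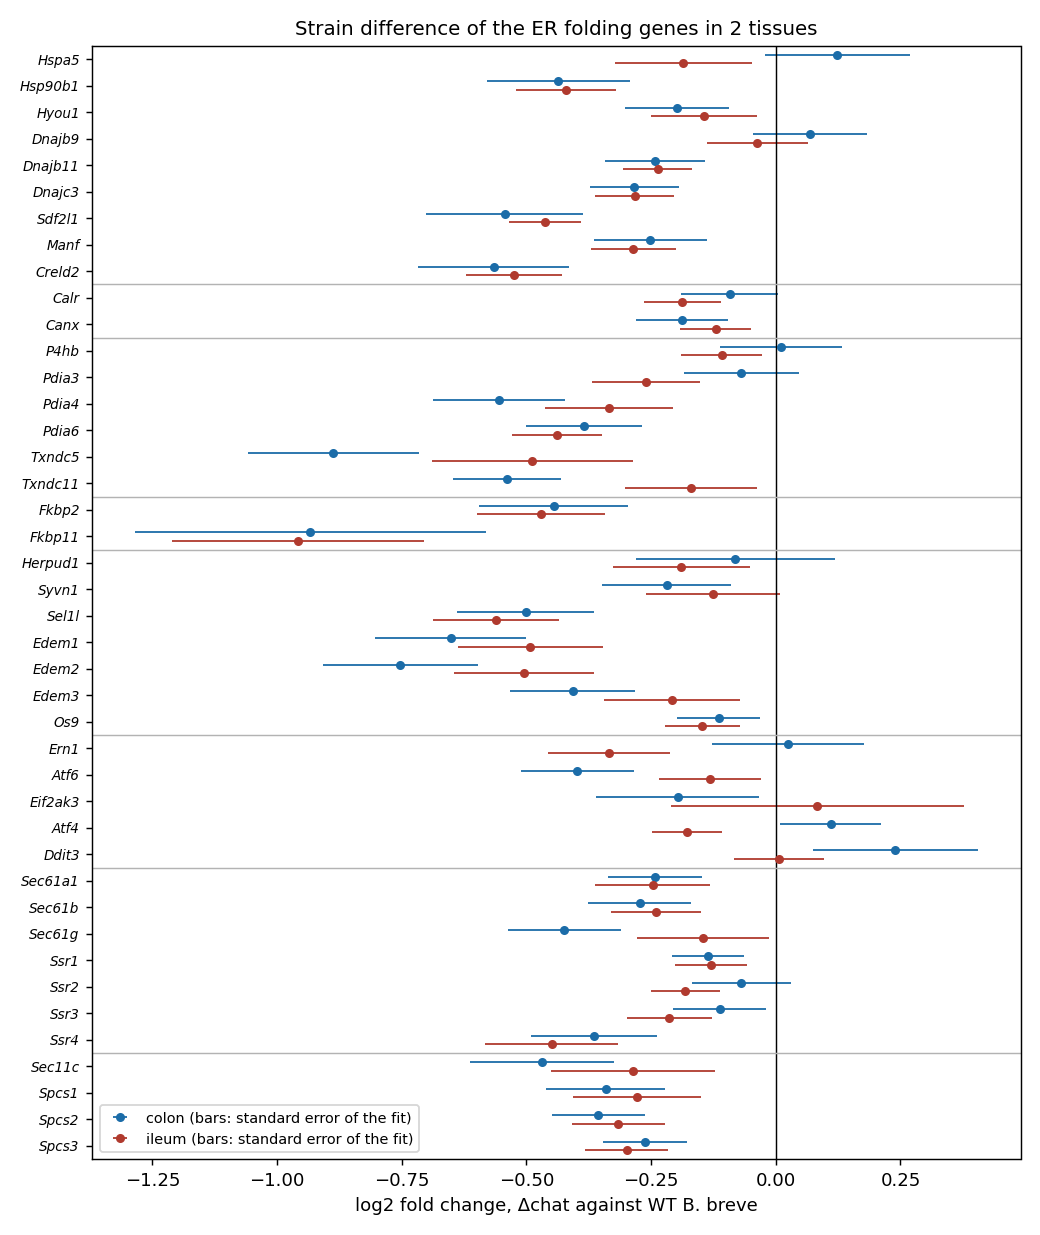
The log2 fold change of each of the 42 genes for Δchat against WT *B. breve* is shown in colon (blue) and ileum (red), with the standard error of the edgeR fit as bars, in 8 roles. In colon 36 points and in ileum 40 points lie below 0, and no gene passes the test over all genes in either tissue.

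In ileum, the same direction was seen in a slightly different order of genes. Again 0 of 42 members passed the test, where 3 of 14496 genes passed as lower (0.0207%) and 0 as higher (0%). The log2 fold change was below 0 for 40 members, with a median of -0.24 against 0.01 for all genes. At an unadjusted p under 0.05, 24 members were lower and 0 higher, against 6.1% and 4.81% of all genes. DESeq2 called 10 members lower and 0 higher, against 1.68% and 0.904% of all genes. Limma-voom with quality weights called 3 lower (0.862% of all genes), *Creld2*, *Pdia6* and *Sdf2l1*, and 0 higher (0.269%). The Δchat libraries lay below all WT libraries in 17 members, against 3.38% of all genes, and above them in 0, against 3.74%.

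Chaperone cofactors led in ileum. *Sdf2l1*, part of the BiP chaperone cycle, stood at 76.6, 91.3, 90.9 and 83.0 CPM in WT and at 62.7, 64.7, 63.1 and 61.5 CPM in Δchat. The groups did not overlap, and the log2 fold change of -0.46 ± 0.07 had an adjusted p of 0.0812. *Pdia6*, a disulfide isomerase that acts with BiP, stood at 337, 356, 385 and 317 CPM in WT and 250, 248, 284 and 263 CPM in Δchat (-0.44 ± 0.09, adjusted p = 0.180). Without Δchat replicate 3 both passed (adjusted p = 0.0368 for *Sdf2l1* and 0.0380 for *Pdia6*), the only members to pass with any 1 library left out. The share of all genes that passed in that fit is not given, so whether these members stood out there was not tested. *Hspa5* was at -0.19 ± 0.14 (adjusted p = 0.653), with 4837, 5283, 5250 and 5916 CPM in WT and 4033, 5895, 4924 and 4184 CPM in Δchat, which overlap.

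*Sel1l* had the smallest p of the degradation genes in ileum, at 254, 360, 242 and 290 CPM in WT and 198, 193, 193 and 205 CPM in Δchat (log2 fold change -0.56 ± 0.13, adjusted p = 0.183). The Δchat libraries lay close together and below all WT libraries. *Herpud1* had a value of -0.19 ± 0.14 (adjusted p = 0.644). *Fkbp11*, a prolyl isomerase of secretory cells that was counted at low levels, stood at 5.83, 10.7, 5.79 and 6.56 CPM in WT and 3.27, 3.0, 4.20 and 4.54 CPM in Δchat (-0.96 ± 0.25, adjusted p = 0.226). This was the member farthest from 0 in ileum, and *Fkbp2*, its relative, had a value of -0.47 ± 0.13 (adjusted p = 0.251).

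In the TRAP complex, *Ssr4* stood at 137, 183, 127 and 135 CPM in ileum WT and 127, 101, 100 and 106 CPM in ileum Δchat (-0.45 ± 0.13, adjusted p = 0.279). In the signal peptidase complex, *Spcs3* stood at 114, 140, 121 and 114 CPM in WT and 99.3, 107, 98.5 and 100 CPM in Δchat (-0.30 ± 0.08, adjusted p = 0.252), without overlap, and *Spcs2* had a value of -0.32 ± 0.09 (adjusted p = 0.279). *Txndc5*, which led in colon, overlapped between strains in ileum (758 to 1186 against 501 to 845 CPM), with a value of -0.49 ± 0.20 (adjusted p = 0.430). Of the sensors and factors, *Ern1* had the smallest p (-0.33 ± 0.12, adjusted p = 0.370), *Atf4* was at -0.18 ± 0.07 (adjusted p = 0.403), and *Calr* among the lectin chaperones was at -0.19 ± 0.08 (adjusted p = 0.431).

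Further members of these roles were below 0 in both tissues, by varied amounts. *Hyou1*, an ER chaperone of the HSP110 type, had log2 fold changes of -0.20 in colon and -0.14 in ileum, *Dnajb11*, a BiP cochaperone, -0.24 in both, and *Manf* -0.25 and -0.29. *Pdia3*, the isomerase that works with the lectin chaperones, was at -0.07 and -0.26, and its libraries overlapped in colon (523 to 577 against 417 to 567 CPM) but not in ileum (633 to 716 against 487 to 628 CPM). *Syvn1*, which encodes the ligase HRD1, was at -0.22 and -0.13. The TRAP subunits *Ssr1*, *Ssr2* and *Ssr3* lay between -0.07 and -0.14 in colon and between -0.13 and -0.21 in ileum. *Sec11c*, a catalytic subunit of signal peptidase, was at -0.47 in colon, with 93.1 to 132 CPM in WT against 64.7 to 93.6 CPM in Δchat, and at -0.29 in ileum.

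A strain effect that differed between ileum and colon was not detected for any member. In the test of that difference 0 of 42 passed, where edgeR called 0.0592% of 15198 genes lower and 0% higher. Nor did any pass by DESeq2 (0.316% of all genes lower, 0.0461% higher) or limma-voom (0.079% lower, 0% higher). By edgeR, 1 member was at an unadjusted p under 0.05, as higher, against 4.43% of all genes higher and 3.3% lower. That gene was *Txndc11* (difference of ileum minus colon 0.41 ± 0.18, adjusted p = 0.631), and the median over the members was 0.04. Without the epithelium-rich colon library 0 passed (0.0456% of all genes lower, 0% higher), with a median of 0.05. For *Hspa5* the difference was -0.27 ± 0.20 (adjusted p = 0.680), for *Txndc5* 0.44 ± 0.27 (adjusted p = 0.653), and for *Atf4* -0.25 ± 0.12 (adjusted p = 0.637).

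Markers of other cells moved with the strain comparison. The summed CPM of 11 plasma cell markers, which hold no member, ran from 7208 to 12663 in colon WT and from 3647 to 4926 in colon Δchat, and from 13220 to 23248 in ileum WT and 8782 to 14365 in ileum Δchat. Most of each sum was *Jchain*. In colon 0 of the 11 passed and 9 were lower at an unadjusted p under 0.05 (5.31% of all genes). The median log2 fold change of the 11 was -0.81. In ileum 6 were lower and 1 higher (6.1% and 4.81%), with a median of -0.41. Of 11 epithelial markers, 11 were higher in colon Δchat at an unadjusted p under 0.05 (7.99% of all genes), with none passing. With a score of epithelial expression in the fit, 0 members were called in either tissue. Of all genes, 0.00682% were called lower and 0.00682% higher in colon, and 0% in ileum. The medians of the members were -0.37 in colon and -0.26 in ileum. The part of other cell types in the strain differences of the 42 genes was not tested.

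Most of the 42 genes differed between colon and ileum. In mice with WT *B. breve*, 27 of 42 members were higher in ileum and 1 lower, against 13.7% of 15198 genes higher and 15.1% lower. The median log2 difference of ileum minus colon was 0.36, against -0.04 for all genes. At an unadjusted p under 0.05, 29 were higher and 1 lower, against 18.6% and 22.3% of all genes. In mice with the Δchat strain, 24 were higher and 0 lower, against 8.31% and 5.03% of all genes, with a median of 0.40. At an unadjusted p under 0.05, 30 were higher and 1 lower, against 15.3% and 13.4%. All 4 ileum libraries lay above all 4 colon libraries in 23 members with WT (16.3% of all genes) and in 27 with Δchat (9.38%), and below them in 1 with WT (18.6%). Without the epithelium-rich colon library, 21 were higher and 0 lower with Δchat (7.03% and 4.08% of all genes), and 31 lay above without overlap (12.6%). Without colon Δchat replicate 1 or replicate 4 the count of members higher was 15, for which no share of all genes is given. These counts come from the fit over 16 libraries. The strain comparisons taken from that same fit called 0 members lower, where 0.0461% of all genes passed in colon and 0.211% in ileum, with medians of -0.28 and -0.22.

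Markers of several cell types moved between the tissues as well. With WT, the summed CPM of 10 macrophage and monocyte markers ran from 420 to 562 in colon and from 1411 to 1913 in ileum, and 10 of 10 passed as higher in ileum. Of 10 T cell markers, 7 passed as higher and 1 as lower, with sums of 354 to 431 in colon and 532 to 701 in ileum. Of the 11 plasma cell markers, 5 passed as higher, and their sums, mostly *Jchain* and given above, did not overlap. Summed counts of *Pou2af1* (19831 against 32486), *Irf4* (20471 against 25677) and *Cd38* (5096 against 6933) were lower in ileum WT than in colon WT. Those of the other plasma cell markers were higher. The same genes were lower in ileum Δchat than in colon Δchat. Of 10 B cell markers, 10 passed as lower, with sums of 2443 to 4432 in colon and 628 to 1290 in ileum. With Δchat, 9 macrophage and monocyte, 6 T cell and 8 plasma cell markers passed as higher and 1 B cell marker as lower. The macrophage and monocyte sums ran from 428 to 873 in colon and from 927 to 3667 in ileum, and the T cell sums from 269 to 473 and from 442 to 650. The part of these cell types in the tissue differences of the 42 genes was not tested.

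The sensors gave the widest contrast. *Ern1* rose in ileum, from 51.2 to 84.1 CPM over the colon WT libraries to 134, 153, 145 and 121 CPM in ileum WT, and to 113, 137, 104 and 92.9 CPM in ileum Δchat. The log2 difference with WT was 1.11 ± 0.15 (adjusted p = 2.5e-04), a 2.16-fold rise and the highest of the 42. *Atf6* rose from 121.8 ± 8.15 CPM in colon Δchat to 213.8 ± 9.48 CPM in ileum Δchat (0.81 ± 0.11, adjusted p = 4.7e-04), with 215, 216, 201 and 224 CPM in the ileum Δchat libraries and 210, 272, 203 and 236 CPM in ileum WT. *Atf4* rose with WT (0.35 ± 0.08, adjusted p = 0.00870) and did not pass with Δchat (0.09 ± 0.08, adjusted p = 0.494). Its 8 ileum libraries held 673, 750, 707 and 711 CPM with WT and 657, 640, 616 and 642 CPM with Δchat. *Ddit3* held 80.4, 97.7, 81.1 and 79.9 CPM in ileum WT and 81.7, 94.1, 80.4 and 90.3 CPM in ileum Δchat.

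*Eif2ak3* was the only member that fell in ileum with WT, from 483, 391, 355 and 519 CPM in colon to 203, 192, 239 and 206 CPM, a log2 difference of -1.06. With Δchat its ileum libraries split into a high pair, at 346 and 280 CPM (replicates 1 and 4), and a low pair, at 132 and 148 CPM (replicates 2 and 3), and the difference of -0.74 did not pass. It passed with a block for the mouse, which gave 26 members higher and 1 lower with Δchat (7.73% and 4.61% of all genes), by DESeq2 (7.82% of all genes lower), and without ileum Δchat replicate 1. The summed CPM of 10 B cell markers split the same way, at 2099 and 1801 against 493 and 443. The part of B cells in the level of *Eif2ak3* was not tested.

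Among the enzymes, *Txndc5* rose in ileum by a log2 value of 0.82 ± 0.20 with WT (adjusted p = 0.00777) and 1.26 ± 0.20 with Δchat (adjusted p = 0.00115). The latter is a 2.39-fold rise, the highest of the members in mice with the Δchat strain. *Edem2* rose 2.03-fold with Δchat (1.02 ± 0.15, adjusted p = 8.6e-04). *Os9*, a lectin that hands misfolded glycoproteins to the HRD1 ligase, rose 1.29-fold with WT (0.36 ± 0.07, adjusted p = 0.00325), from 165.8 ± 12.9 to 213.2 ± 13.4 CPM. *Herpud1* rose in both, by 0.66 ± 0.18 with WT (adjusted p = 0.0144) and 0.59 ± 0.18 with Δchat (adjusted p = 0.0410). The call with Δchat did not hold with 7 of the 8 colon and ileum Δchat libraries left out in turn. Over all 8 of these edgeR fits the adjusted p ran from 0.0479 to 0.115.

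*Dnajc3*, a BiP cochaperone that also inhibits PERK, had the smallest p of the chaperone group in both strains (0.38 ± 0.08 with WT, adjusted p = 0.00294, and 0.42 ± 0.08 with Δchat, adjusted p = 0.00256). *Hspa5* rose with WT (0.57 ± 0.14, adjusted p = 0.00974), from 3580 ± 484 to 5322 ± 445 CPM, and its value with Δchat did not pass (0.30 ± 0.14, adjusted p = 0.180). *Sec61b* of the channel rose by 0.42 ± 0.10 with WT (adjusted p = 0.00634) and 0.49 ± 0.10 with Δchat (adjusted p = 0.00422), and *Spcs2* by 0.41 ± 0.09 (adjusted p = 0.00541) and 0.49 ± 0.09 (adjusted p = 0.00336). *Ssr3* rose in both strains (0.36 and 0.29), *Pdia3* and *P4hb* with WT (0.30 and 0.27), and *Sec11c* with Δchat (0.56), whereas *Ssr1*, *Ssr2*, *Syvn1*, *Hyou1* and *Dnajb11* did not pass in either strain, with values between 0.03 and 0.31. *Calr* and *Canx* did not pass either, with log2 differences between -0.15 and 0.05.

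Immunoglobulin load moved with these differences too, so each gene was set against it within the groups. The fit held a mean for each of the 4 groups and a slope on the log2 immunoglobulin share of each library. A slope of 1 means that a gene's CPM doubles when the share doubles, and a slope of 0 that it stays level. Of 15198 genes, 27 passed with a positive slope (0.178%) and 2 with a negative one (0.0132%). The 27 held 3 immunoglobulin genes (*Igha*, *Igkc* and *Ighv2-5*), *Jchain*, which joins antibody units, and other genes of plasma cells such as *Sdc1*, *Tnfrsf17* and *Mzb1*. The immunoglobulin genes are counted in the share itself, so their slopes are no independent result. The 27 also held 5 of the 42 members, *Txndc5*, *Edem1*, *Edem2*, *Edem3* and *Ssr4*. At an unadjusted p under 0.05, 20 members had a positive slope and 0 a negative one, against 3.06% and 3.75% of all genes, and the median slope was 0.21 against -0.0025 for all genes.

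**Figure D3:**
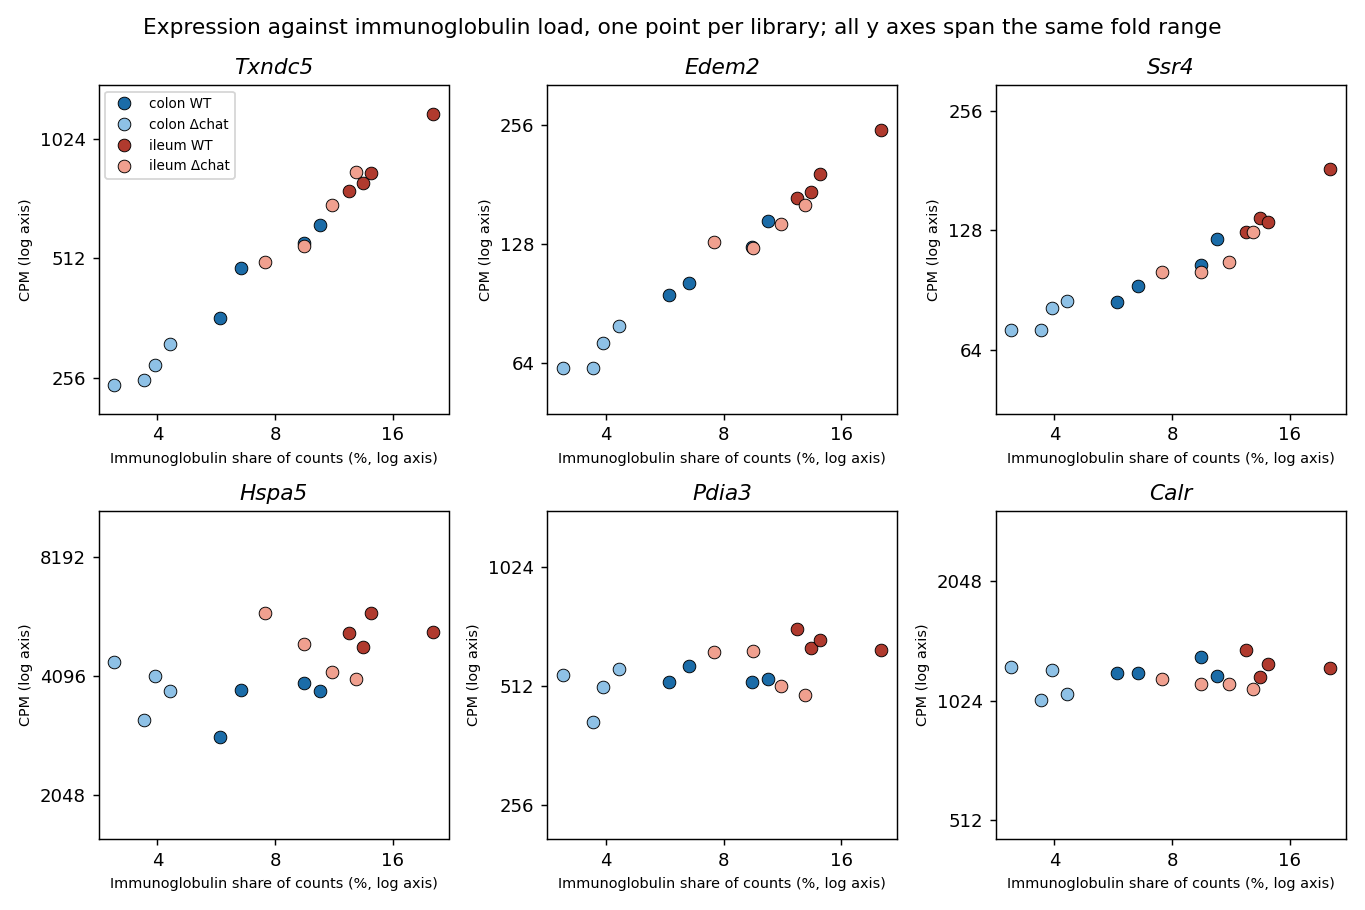
CPM of 6 genes (vertical, log axis) is plotted against the immunoglobulin share of counts in percent (horizontal, log axis), 1 point per library, coloured by group; all vertical axes span the same fold range. *Txndc5*, *Edem2* and *Ssr4* climb with the share across all 4 groups, while *Hspa5*, *Pdia3* and *Calr* have slopes of -0.11, -0.19 and -0.07 within groups, with offsets between colon and ileum for *Hspa5* and *Pdia3*.

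*Txndc5* had the steepest slope of the members that passed, 0.86 ± 0.10 (adjusted p = 0.00158), or 1.82-fold per doubling of the share. In colon WT the library with the lowest share (replicate 1, 5.79%) held 361 CPM and the one with the highest (replicate 2, 10.4%) held 623 CPM. In ileum Δchat the library with the lowest share (replicate 2, 7.56%) held 501 CPM and the one with the highest (replicate 1, 12.9%) held 845 CPM. In ileum WT, replicate 2, whose share of 20.2% was the highest of the 16, held 1186 CPM, against 758 to 842 CPM in the others.

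The 3 EDEM genes had like slopes, 0.65 ± 0.09 for *Edem2* (adjusted p = 0.00763), 0.65 ± 0.09 for *Edem1* (adjusted p = 0.00939) and 0.57 ± 0.09 for *Edem3* (adjusted p = 0.0177). *Edem2* went from 95.0 to 147 CPM between the same 2 libraries of colon WT, and from 167 to 248 CPM between the ileum WT libraries with the lowest and the highest share. *Ssr4* had a slope of 0.55 ± 0.09 (adjusted p = 0.0166), with 84.5 and 122 CPM in the 2 colon WT libraries. Other members of the entry machinery fell short of the threshold. *Spcs1*, of the signal peptidase complex, stood at 50.3, 70.9, 54.7 and 58.8 CPM with WT and 44.6, 47.3, 50.1 and 41.4 CPM with Δchat in colon. In ileum it stood at 66.4, 97.1, 68.0 and 73.2 CPM with WT and 68.8, 61.4, 58.4 and 67.0 CPM with Δchat. Replicate 2 was the highest in both WT groups, as for the share, and the slope was 0.50 ± 0.09 (adjusted p = 0.0501). *Sec61a1* had a slope of 0.38 ± 0.08 (adjusted p = 0.145) and *Spcs2* one of 0.29 ± 0.09 (adjusted p = 0.477).

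No chaperone passed. None of the 9 in the HSP70 and HSP90 group and neither lectin chaperone was at an unadjusted p under 0.05. In the HSP70 and HSP90 group 7 slopes were positive and 2 negative, from -0.11 for *Hspa5* to 0.22 for *Creld2*, with a median of 0.16. In colon libraries alone the slopes of *Creld2* (0.34 ± 0.26), *Hsp90b1* (0.30 ± 0.26) and *Manf* (0.31 ± 0.19) were close to the median of all members there, 0.31. *Hspa5* had a slope of 0.20 ± 0.27 in colon alone and of -0.36 ± 0.21 in ileum alone. With an epithelial score in the fit, *Hyou1* was at an unadjusted p of 0.0428 (slope 0.31 ± 0.14, adjusted p = 0.728 by edgeR). Whether the slopes of chaperones differ from those of the other members was not tested. Over all 16 libraries, the slope was -0.11 ± 0.18 for *Hspa5* (adjusted p = 0.946), -0.07 ± 0.10 for *Calr* (adjusted p = 0.939) and -0.09 ± 0.10 for *Canx* (adjusted p = 0.897). The smallest p in the chaperone group was that of *Manf*, a secreted ER stress protein that binds BiP, with a slope of 0.18 ± 0.12 and an adjusted p of 0.795. In colon it stood at 162, 194, 163 and 197 CPM with WT and 126, 164, 151 and 155 CPM with Δchat, and in ileum at 192, 240, 218 and 238 CPM with WT and 183, 195, 178 and 185 CPM with Δchat. In colon WT, *Hspa5* held 3752 CPM at the highest share and 3922 CPM at 9.46%. In ileum Δchat its highest value, 5895 CPM, stood at the lowest share. 

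**Figure D4:**
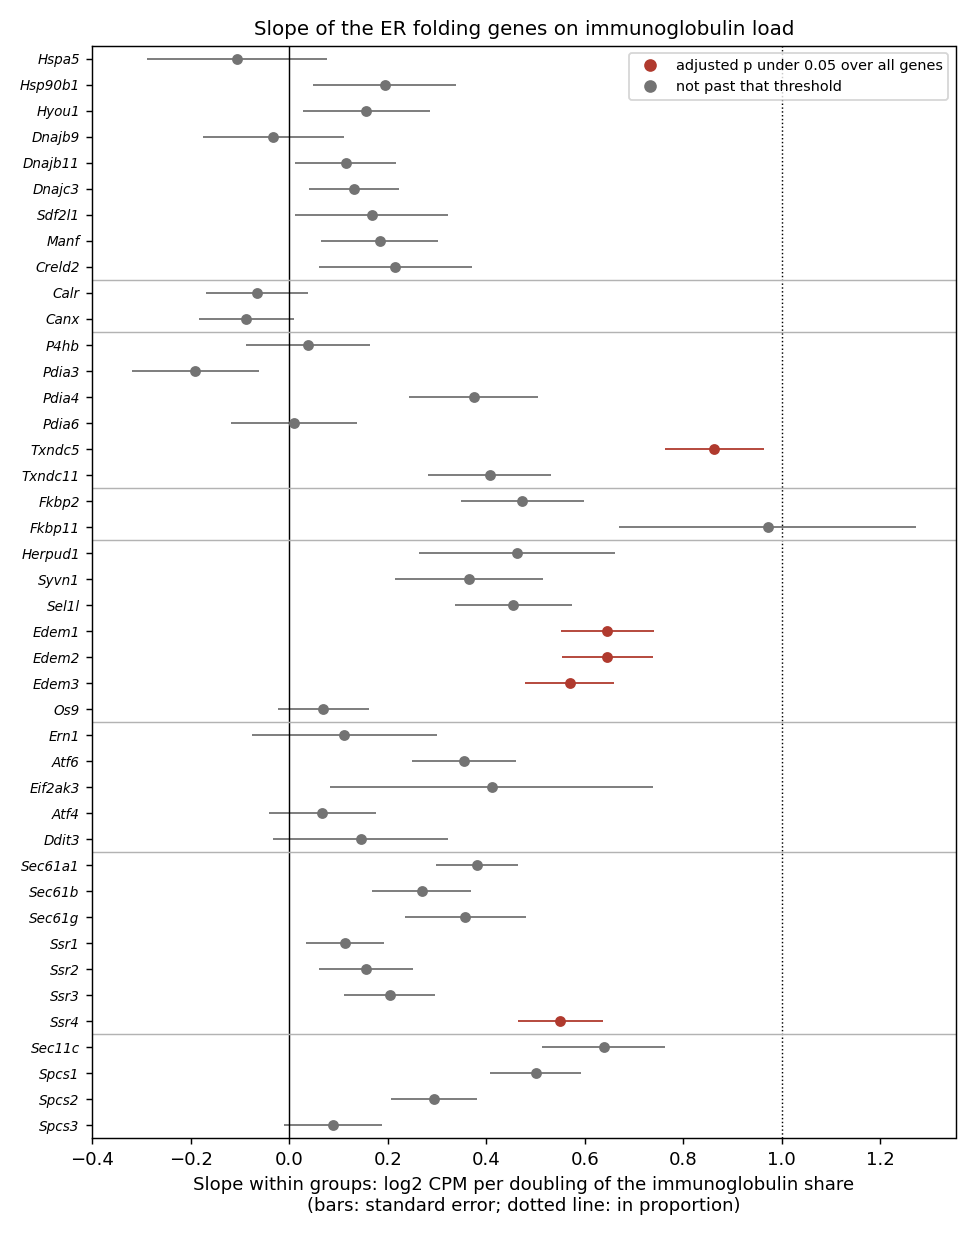
The slope of each of the 42 genes on the log2 immunoglobulin share, fitted within groups over 16 libraries, is shown with its standard error, in 8 roles; red points are the 5 genes that pass over all genes, and the dotted line marks a change in proportion to the share. The 9 genes of the HSP70 and HSP90 group lie between -0.11 and 0.22, and the 7 degradation genes between 0.07 and 0.65.

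Sensors and factors had slopes between 0.07 and 0.41, none past the threshold, with the smallest p for *Atf6* (0.35 ± 0.11, adjusted p = 0.484) and 0.07 ± 0.11 for *Atf4* (adjusted p = 0.942). *Herpud1* had a slope of 0.46 ± 0.20 (adjusted p = 0.707) and *Fkbp2* one of 0.47 ± 0.13 (adjusted p = 0.332). Set against the promoter letters, the 10 members with an ER stress element of either form had a median slope of 0.12, and 0 of them passed. The 25 with a promoter and neither form had a median of 0.36, and all 5 that passed were among them. This split was not tested.

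The calls on the slope depend on which libraries and terms are in the fit. With a block for the mouse 0 members passed (0.0197% of all genes with a positive slope) and 9 were at an unadjusted p under 0.05, all positive (5.6%), with slopes of 0.93 ± 0.20 for *Txndc5* and 0.63 ± 0.17 for *Edem1*, and in colon or ileum libraries alone 0 passed (0% of all genes in each), 11 and 13 were at an unadjusted p under 0.05, all positive (0.921% and 4.55%), with slopes for *Txndc5* of 0.77 ± 0.18 and 0.98 ± 0.12. Without ileum WT replicate 2, 1 member passed (*Txndc5*), and without colon WT replicate 1, 2 did. For these 2 fits the share of all genes is not given. DESeq2 called 8 members (0.467% of all genes) and limma-voom 7 (0.237%), each with a positive slope. With an epithelial score in the fit 5 passed (0.132% of all genes), *Sec11c* in place of *Ssr4*. Without the epithelium-rich colon library 7 passed (0.235%), with slopes of 0.86 ± 0.10 for *Txndc5* and 0.63 ± 0.09 for *Edem2*.

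When the immunoglobulin share was added to the comparisons of groups, most of the differences of the module moved nearer to 0, for 30 of 42 members between strains in colon and 32 in ileum. In colon the median log2 fold change of the members between strains was 0.04, with 15 of 42 below 0 and 0 at an unadjusted p under 0.05 (1.27% of all genes lower, 2.07% higher). *Txndc5* was at -0.05 ± 0.22 and *Edem2* at 0.02 ± 0.18. The colon shares of the strains do not overlap, so share and strain cannot be told apart there. In ileum the shares of the strains overlap only in that Δchat replicate 1 (12.9%) lay above WT replicate 3 (12.3%). Share and strain are thus hardly told apart there either. With the share in the fit, the ileum median was -0.14 and 0 members passed (0% of all genes), while 7 were lower at an unadjusted p under 0.05 (6.84%). *Sdf2l1* (-0.44 ± 0.11), *Pdia6* (-0.44 ± 0.13) and *Creld2* (-0.45 ± 0.14) had values near those without the share, as did *Hsp90b1* (-0.35 ± 0.14) and *Dnajb11* (-0.23 ± 0.10). The other two of the 7 moved away from 0, *Pdia3* from -0.26 to -0.45 ± 0.13 and *Hspa5* from -0.19 to -0.40 ± 0.17. *Txndc5* was at 0.04 ± 0.10 and *Edem2* at -0.16 ± 0.11. Between tissues with WT, 1 member was higher (*Ern1*, 1.01 ± 0.23) and 2 lower (*Eif2ak3*, -1.43 ± 0.39, and *Edem3*, -0.36 ± 0.11), where 7.85% of all genes were higher and 3.61% lower. With Δchat 0 passed, against 1.53% and 0.0987%. With either strain the shares of colon and ileum do not overlap, so share and tissue cannot be told apart in these fits.

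Other genes of the pathway, 110 in 6 lists, gave the surroundings of the module. Between strains 0 passed in colon (0% of all genes lower, 0.00682% higher) or ileum (0.0207% and 0%). At an unadjusted p under 0.05, 24 were lower and 4 higher in colon (5.31% and 7.99% of all genes), with a median log2 fold change of -0.12. In ileum 31 were lower and 0 higher (6.1% and 4.81%), with a median of -0.14. *Xbp1* itself had values of -0.51 ± 0.11 in colon (adjusted p = 0.222) and -0.54 ± 0.15 in ileum (adjusted p = 0.235). *Derl3*, a derlin of ER-associated degradation, was at -1.05 ± 0.20 in colon (adjusted p = 0.168), *Tram2*, a translocon-associated protein, at -0.91 ± 0.17 (adjusted p = 0.173), and *Bhlha15*, a secretory-cell factor also known as MIST1, at -0.97 ± 0.21 (adjusted p = 0.220). On the immunoglobulin share, 4 of the 110 passed, all with a positive slope (0.178% of all genes). They were *Bhlha15* (0.98 ± 0.13, adjusted p = 0.00366), *Derl3* (0.93 ± 0.11, adjusted p = 0.00181), *Sil1*, a nucleotide exchange factor of BiP (0.61 ± 0.10, adjusted p = 0.0312), and *Xbp1* (0.52 ± 0.09, adjusted p = 0.0442).

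Targets of ATF4 and CHOP, 18 genes downstream of PERK, had a median of -0.06 in colon, -0.19 in ileum and -0.06 on the share, with 0 called by edgeR. At an unadjusted p under 0.05, 2 were lower and 2 higher in colon (5.31% and 7.99% of all genes). In ileum 5 were lower and 0 higher (6.1% and 4.81%), and on the share 3 slopes were positive and 2 negative (3.06% and 3.75%). Between tissues, 8 of them were higher and 2 lower in ileum with WT (13.7% and 15.1% of all genes). Among the 8 was *Chac1*, a glutathione-degrading enzyme, with a log2 difference of 1.31 ± 0.18 (adjusted p = 3e-04). In the list of ER to Golgi export, 11 of 18 genes were lower in ileum Δchat at an unadjusted p under 0.05 (6.1% of all genes) and 0 passed. *Tmed10*, a cargo receptor, had the smallest p there (-0.28 ± 0.07, adjusted p = 0.201).

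Chaperones outside the ER, 14 heat shock genes that include the mitochondrial *Hspd1* and *Hspe1*, had medians on the other side of 0 from the ER genes between strains. Their median strain effect, as log2, was 0.37 in colon and 0.42 in ileum, with 0 passing in either tissue. At an unadjusted p under 0.05, 3 were higher in colon and 6 in ileum (7.99% and 4.81% of all genes). In ileum the HSP70 genes *Hspa1a* and *Hspa1b*, a near-identical pair whose counts may be shared between them, had values of 1.34 ± 0.25 (adjusted p = 0.124) and 1.44 ± 0.27 (adjusted p = 0.125). On the immunoglobulin share the median of the 14 was -0.14, with 0 passing and 0 at an unadjusted p under 0.05 (3.06% of all genes positive, 3.75% negative).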

How the data were processed

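Per the submitters' processing notes, reads were trimmed with cutadapt 5.0 and quantified with Salmon 1.4.0 on GRCm39, and the authors deposited the resulting estimated counts of each gene in 1 table. These were rounded here to whole numbers, which touched 34.8 to 40.7% of a library's entries. Libraries were grouped by their labels, and none was left out. Identifiers were named through GENCODE symbols (542 had none), and the 424 immunoglobulin genes were those with an immunoglobulin biotype there. The second identifier named *Ddit3* had no counts and was not used.

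Counts were fitted in R 4.3.3 with edgeR 4.0.16 (filterByExpr, TMM, robust quasi-likelihood, 2-sided tests, Benjamini-Hochberg adjustment over the genes fitted, with a call below 0.05). Each strain comparison used the 8 libraries of 1 tissue. All others used 1 fit over 16 libraries, from whose TMM factors the printed CPM also come. Alternatives were DESeq2 1.42.0, limma-voom (limma 3.58.1), RLE size factors, other filters, covariates, blocks and each library left out in turn. The epithelial score is a mean of log2 CPM with a prior count of 2. Colon and ileum libraries with the same strain and number were taken as the same mouse, from the design of 4 mice per strain. Their deviations from group means correlated across genes between -0.06 and 0.07 for WT and between -0.18 and 0.27 for Δchat. Replicates of a group differed beyond sampling noise in all 24 pairs.

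Members, roles, lists and tests were chosen with earlier results of these data known. In each role, full values are given for the member with the smallest p and the one with the highest mean CPM, and up to 2 genes by smallest p from each pathway list. The fits were tested on simulated counts with log2 changes larger than any strain effect given above for a member. That test does not bear on effects of the members' size.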

Additional observations from a re-analysis of the deposited data

Results flagged for a closer look

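Single libraries that stood far from the other 3 of their group, by Dixon's test at the 95% level, were looked for in 168 groups of 4 values (42 genes in 4 groups). The test marked 12, where chance marks about 1 in 20. Colon Δchat replicate 1 was the lowest for *Hsp90b1* (925 CPM, the others 1229 to 1281) and *Creld2* (47.6 CPM, the others 67.3 to 68.9), and ileum Δchat replicate 1 was the lowest for *Hsp90b1* (1462 CPM). Colon WT replicate 1 was the lowest for *Hspa5* (2863 CPM, the others 3752 to 3922).

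The other 8 were high values. WT replicate 2, which had the highest immunoglobulin share in both tissues, was the highest for *Fkbp2* (28.4 CPM) and *Sec61g* (45.6 CPM) in colon, and for *Fkbp11* (10.7 CPM) and *Ddit3* (97.7 CPM) in ileum. The epithelium-rich colon Δchat replicate 3 was the highest for *Fkbp2* (22.0 CPM). Colon WT replicate 4 was the highest for *Calr* (1318 CPM), ileum WT replicate 3 for *Canx* (380 CPM), and ileum Δchat replicate 1 for *Ssr1* (124 CPM).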

How the results depend on the processing

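The direction of the members' medians between strains and between tissues held under all alternatives run, except in colon with the immunoglobulin share in the fit. With that share, the medians were 0.040 (colon strain effect), -0.14 (ileum strain effect), -0.064 (ileum minus colon strain effect), 0.12 (tissues, WT) and 0.060 (tissues, Δchat). Between tissues with WT, 1 member was then called higher and 2 lower, and 0 were higher with Δchat. Share and tissue cannot be told apart in these fits, nor share and strain in colon. Of the 42 members, 21 changed sign with the share in the colon strain effect, 9 in the ileum one, 20 in their difference, 10 between tissues with WT and 19 with Δchat. Among the genes followed through all alternatives (smallest p or highest CPM of each role), values turned in colon to 0.011 (*Fkbp2*), 0.70 (*Herpud1*), 0.018 (*Edem2*), 0.074 (*Atf6*), 0.089 (*Sec61a1*) and 0.0095 (*Spcs2*), and in ileum to 0.041 (*Txndc5*) and 0.021 (*Sec61a1*). For the difference of the strain effects they were -0.032 (*Txndc5*), -0.24 (*Fkbp2*), -0.047 (*Edem2*), -0.16 (*Sec61a1*), -0.11 (*Sec11c*) and -0.073 (*Spcs2*). Between tissues they were -0.094 for *Fkbp2* with WT and, with Δchat, 0.082 (*Calr*), 0.079 (*Canx*), -0.0017 (*Txndc5*), -0.33 (*Fkbp2*), -0.067 (*Herpud1*), -0.0046 (*Atf4*) and -0.14 (*Sec61a1*). The cause was not tested.

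Tools changed counts more than directions. DESeq2 called 11 members lower in colon and 10 in ileum, 1 lower between tissues with Δchat, and 8 on the share. Limma-voom called 3 lower in ileum and gave a median of 0.46 between tissues with Δchat. Values near 0 in the difference of the strain effects changed sign. *Fkbp2* was at -0.023 with DESeq2, -0.024 with RLE, -0.029 with the filter of 1 CPM and -0.0092 without immunoglobulin genes. *Sec61a1* was at -0.0024 with DESeq2 and with RLE and at -0.010 with the filter. *Herpud1* was at 0.050 with limma-voom.

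On the share, 0 members were called in colon alone (median slope 0.31), in ileum alone (0.13) and with the mouse as a replicate block (0.18), and with the epithelial score the median was 0.28. *Hspa5* had a slope of 0.20 in colon alone and -0.36 in ileum alone, *Calr* one of 0.0069 with the epithelial score and 0.0011 with the block, and *Canx* one of 0.076 with the block. Between tissues the block gave 28 members higher and 1 lower with WT (12.7% and 13% of all genes). With Δchat it gave 26 higher and 1 lower (7.73% and 4.61%). In the strain comparisons the number does not pair mice. With it as a block 0 members were called (0% of all genes in either tissue), with medians of -0.27 in colon and -0.24 in ileum.

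With each library left out in turn, members called lower in ileum ran from 0 to 2, members higher between tissues with Δchat from 15 to 21 and lower from 0 to 1 (*Eif2ak3*), and members called on the share from 1 to 7, with a median slope from 0.15 to 0.29. The shares of all genes called in these fits are not given, except those without colon Δchat replicate 3 above. *Herpud1* ran from -0.22 to 0.083 in colon. For the difference of the strain effects, *Fkbp2* ran from -0.094 to 0.12, *Herpud1* from -0.25 to 0.045, *Sec61a1* from -0.058 to 0.086 and *Spcs2* from -0.0049 to 0.13. *Calr* ran from -0.063 to 0.024 between tissues with Δchat, and the slope of *Hspa5* from -0.29 to 0.057. *Fkbp11* had the lowest mean level of the 42 genes, at 1.24 to 10.7 CPM. The parts of depth and of the 4 libraries a group in the errors were not tested.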
